A study of Brassica napus with 6 samples.

Results

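The genes described here are 96 Brassica rapa gene identifiers that were each matched by 4 or more separate components of a rapeseed transcript assembly, out of 12039 identifiers with a transcript past the filter on low counts. A component is a cluster of assembled transcripts, read from the transcript name by leaving off its subcomponent and sequence endings. The genes were chosen by the deposited counts: transcripts were kept when the upper quartile of their counts over the 6 libraries was at least 10 and a gene match was given, and a gene entered when its kept transcripts came from at least 4 components. Level and the number of components were therefore used in the choice, and what is said of them within a gene is a description without a test. Differences between the groups were tested, on the same counts that chose the genes.

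The libraries are digital gene expression profiles, in which short reads are counted per transcript, of young floral buds of the Brassica napus cultivar Qinyou3 taken at meiosis of the pollen mother cells. In the amidosulfuron group (3 libraries) plants had been sprayed at bolting with 0.3 mg/L amidosulfuron, a sulfonylurea herbicide used as a male gametocide. In the control group (3 libraries) plants of the same cultivar had been sprayed with water at the same stage. The labels call the libraries of a group independent biological replicates and do not say how many plants each pooled.

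Rapeseed is an allotetraploid that joins the genomes of Brassica rapa and Brassica oleracea, and both parents descend from a triplicated ancestor. One Brassica rapa gene can therefore match several rapeseed copies, and copies of a duplicated gene are known in many plants to differ in level and in response. An assembler can also break one transcript into pieces that end in separate components, so several components of one gene may be copies, pieces or related genes. The tables give identifiers without gene symbols, and 0 of 20674 identifiers matched the RefSeq gene table for Brassica napus, so no role is given for any gene and no defining marker of the bud was looked up. Sulfonylureas inhibit acetolactate synthase, an enzyme of branched-chain amino acid synthesis.

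Total tabulated counts were 1942711, 2867528 and 2061709 in the amidosulfuron libraries and 3596321, 2218787 and 2414727 in the control libraries. Control 3 and amidosulfuron 2 stood apart from their groups. Over the 16999 component sums tested, log2(CPM + 1) of this pair correlated at 0.934 (Pearson, across features that are not independent replicates), against 0.909 and 0.921 for amidosulfuron 2 with the other treated libraries and 0.896 and 0.914 for control 3 with the other controls. CPM is the usual scaled count, here on library sizes adjusted with trimmed-mean factors. The labels give no batch that sets this pair apart.

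Of the 96 genes, 57 had 4 kept components, 24 had 5, 7 had 6 and 3 had 7. Single genes had 9, 10, 11, 12 and 13. Counts were summed within a component, which gave 466 gene-component pairs from 697 kept transcripts. The tables list 1175 transcripts and 751 components for these genes in all, and 285 components did not pass the filter. At the filter's edge, 38 kept transcripts had an upper quartile of 10 to 11 counts and 26 that were left out had one of 9 to 10. Of the pairs, 350 held a single transcript and the fullest held 12. The longest transcript of a component had a median length of 750 bp (quartiles 417 and 1210), against 965 bp over all matched components past the filter, and the mean count per library had a median of 34.1 against 46.8.

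The counts point to reads divided between transcripts. Counts that were not whole numbers in at least 1 library were found in 90.1% of the 466 pairs and in 85.7% of all matched components, and the sources used here do not give how a read with several hits was split. Of the 266 pairs whose component is listed with a single transcript, 223 (83.8%) also had counts that were not whole, which a split within that listed component cannot give. Some components also carried transcripts matched to another gene, which held for 104 pairs, so that the 466 pairs came from 447 distinct components. Pairs that share a component or a gene are not independent of each other.

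Within a gene the components differed in level. Levels were compared as RPKM, reads scaled to transcript length and to the mapped reads of the library, and summed within a component. The leading component, the one with the highest mean RPKM over the 6 libraries, held a median of 41.2% of its gene's RPKM (quartiles 34.9% and 49.2%, range 21.7% to 86.2%). It held more than 50% in 23 genes and more than 90% in 0 genes. The highest component stood a median of 4.67-fold above the lowest (quartiles 3.04 and 11.6, highest 80.4), and in 29 genes more than 10-fold. Against the runner-up the ratio was smaller, with a median of 1.6 and 30 genes over 2-fold.

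The order of components was stable in part of the genes. In 54 of the 96 genes the same component led in all 6 libraries, and in 85 the same component led in the mean of the amidosulfuron libraries and in that of the control libraries. The 54 genes with a constant leader had a median ratio of leader to runner-up of 2.11, and the other 42 had 1.23. The leading component carried the longest transcript in 24 genes. The plot of leading share against the spread of levels shows both groups of genes.

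**Figure D1:**
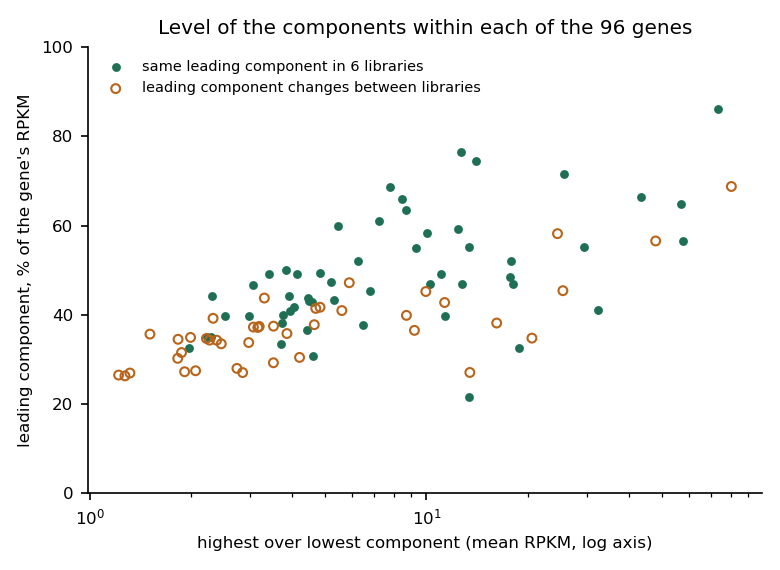
Level of the components within each of the 96 genes: the horizontal log axis gives the highest over the lowest component (ratio of mean RPKM), the vertical axis the percent of the gene's RPKM in the leading component. Each point is 1 gene; the 54 filled points kept the same leading component in all 6 libraries and the 42 open ones did not. The ratio runs from 1.22 to 80.4 and the share from 21.7% to 86.2%.

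The highest share that 1 component of a gene held within a library showed no detectable change after amidosulfuron. That component was picked anew in each library, so a change of leader is not seen in this value. Over the genes the median of this share was 41.6%, 41.6% and 44.4% after amidosulfuron and 45.9%, 43.2% and 41.7% in the controls. The groups overlapped, and the difference of −1.09 percentage points gave p = 0.5 in a two-sided exact permutation test, which cannot go below 0.1 with 3 libraries a group. Without control 1 the difference was 0.0603.

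Few components passed the test for a response to amidosulfuron. With edgeR's quasi-likelihood test, Benjamini-Hochberg adjusted over all 16999 component sums and read at a threshold of 0.05, 2 of the 466 pairs were higher in amidosulfuron buds and 0 were lower. Over all component sums tested 0.306% were higher and 0.0765% lower, so the 0.429% of pairs called higher lies near the background. DESeq2 called 6 pairs higher (1.29% of pairs against 0.943% of all component sums) and 0 lower (0.595% of all). With the counts of a gene summed over its components, 0 of the 96 genes passed in either direction with edgeR (smallest adjusted p 0.0744), where 0.176% of all sums were higher and 0.0564% lower. DESeq2 called 4 of these sums higher, against 0.968% of all, and 0 lower, against 0.65%. In buds, more cells of a type and more RNA per cell cannot be told apart.

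Below the adjusted threshold the components of these genes leaned upwards. At an unadjusted p under 0.05 (edgeR), 45 of the 466 pairs were higher, which is 9.66% against 5.71% of all component sums. By the same measure 13 were lower, 2.79% against 5.38%. The 3 amidosulfuron values lay above all 3 control values in 55 pairs (11.8%, against 7.64% of all) and below them in 23 (4.94%, against 7.69%). At the thresholds of the series' design text, an unadjusted p of at most 0.05 and a 2-fold change, 26 pairs were higher against 2.74% of all, and 6 were lower against 3.19%. For sums per gene, 10 of 96 were higher at an unadjusted p under 0.05 (10.4% against 5.88%) and 2 lower (2.08% against 5.51%), and by the p and fold limits of the design text 5 were higher (against 2.62%) and 1 lower (against 3.24%). Components of genes with 3 components gave similar shares at an unadjusted p under 0.05 (edgeR), 8.77% higher and 2.57% lower. Pairs of one gene are not independent, so these shares describe the set and carry no test.

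The number of pairs higher at this level moved with single libraries, as did that over all component sums. The 45 pairs came from 23 genes, of which 5 supplied 3 to 5 pairs each. Amidosulfuron 1 gave the highest treated value in 41 of the 45 (91.1%, against 73.8% of all component sums higher at this level), and amidosulfuron 2 the lowest in 40 (88.9% against 84.4%). Leaving out amidosulfuron 1 gave 19 pairs higher (4.08%) and 9 lower (1.93%) at an unadjusted p under 0.05 (edgeR). Over all component sums those shares were 2.42% and 3.44%. Leaving out amidosulfuron 2 gave 64 higher (13.7%) and 10 lower (2.15%), against 8.38% and 5.97% of all. Without control 3 and amidosulfuron 2 together the numbers were 60 (12.9%) and 12 (2.58%), against 8.26% and 7.62% of all. The part that any one library has in these numbers was not tested further.

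The fold of a component is the fitted log2 ratio of amidosulfuron over control. Over the 466 pairs it had a median of 0.10, against −0.02 over all component sums. Of the pairs 278 (59.7%) were above 0, against 48.2% of all component sums. Genes with 3 components were close to the 466 pairs, with a median of 0.09 and 56.5% above 0. The median of the 466 was 0.01 without control 1 and 0.19 without control 3. Within a gene, the folds of the components spanned a median of 0.734 on the log2 scale (quartiles 0.502 and 1.06) and had a median SD of 0.306. The median standard error of a single fold was 0.353. Standard errors here are the absolute fold over the square root of its F statistic, which is unreliable for folds near 0. The SD and the standard error measure different spreads and were not compared by a test. All components of a gene were above 0 in 21 genes and below 0 in 10, and 65 genes held both signs. With the counts of a gene summed, 59 of 96 folds were above 0 and all lay between −1.01 and 1.64, as the plot of every component's fold shows.

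**Figure D2:**
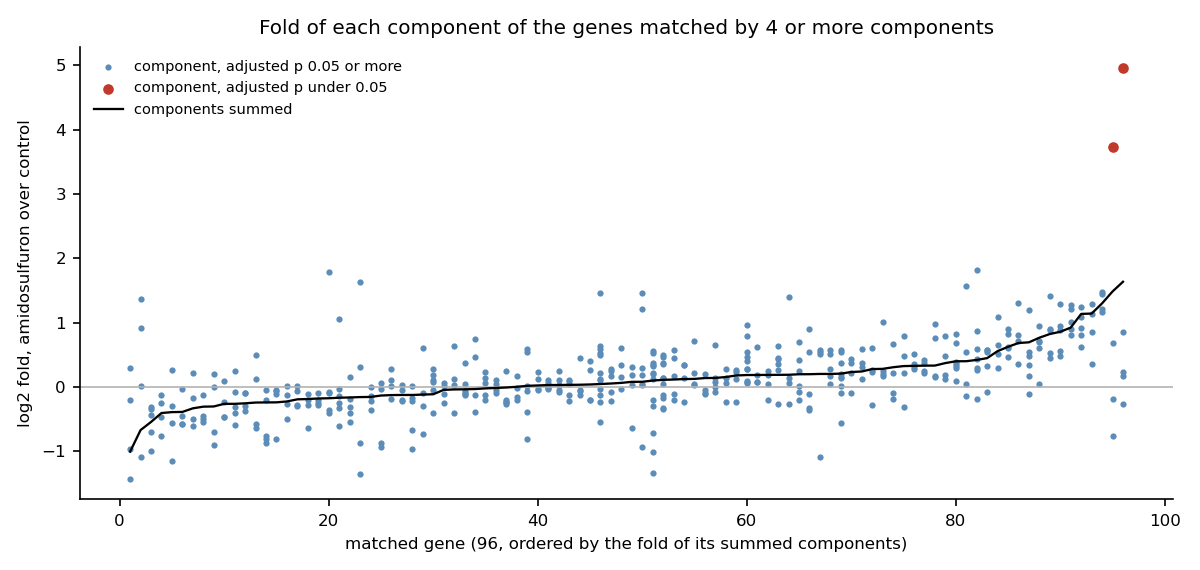
Fold of every component: each column is 1 of the 96 genes, ordered by the fold of its summed components (line), and each point is 1 gene-component pair with its log2 fold of amidosulfuron over control. The 2 large points at 4.97 and 3.73 are the pairs with an adjusted p under 0.05 (edgeR); all others lie between −1.43 and 1.82.

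The test of a difference in response between components of one gene passed in 2 of the 96 genes, Brara.F01523 and Brara.I05370. The pass of Brara.F01523 rests on comp46700, a component that passed the count filter through the treated libraries alone. The difference itself was tested, as an interaction of component and group within each gene (edgeR diffSpliceDGE, Benjamini-Hochberg adjustment over the 2259 genes with at least 2 components, threshold 0.05). Among all of those, 5 genes passed, which is 0.221%. At an unadjusted p under 0.05 the test gave 16 of the 96 genes (16.7%), against 4.21% of the 2259, most of which have 2 components. The share was 3.14% of genes with 2 components, 7.02% with 3 and 14.0% with 4.

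In Brara.F01523, 1 of 5 components appeared almost only in treated buds. The component comp46700, a single transcript of 1289 bp, had 116.5, 42.11 and 66.76 CPM in the amidosulfuron libraries and 1.751, 2.543 and 2.869 CPM in the control libraries. The groups were far apart, with amidosulfuron 1 the highest of the treated libraries, and the log2 fold was 4.97 ± 0.469 (SE, n = 3 each; edgeR adjusted p = 0.00486). Its deposited counts were 211, 128 and 136.5 after amidosulfuron and 6, 6.5 and 7 in the controls, so it passed the count filter through the treated libraries alone and had to be higher there to enter at this level. With no filter on low counts the log2 fold was 4.98 (edgeR adjusted p = 5.34e-32). That fit called 415 of 45944 component sums higher and 709 lower, against 52 and 13 of 16999 with the filter. Its p values are therefore not on a par with those of the main fit. The gene has 4 other kept components and would be among the 96 without comp46700.

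The other components of Brara.F01523 moved less. The component comp31522, 1032 bp long and with whole counts in every library, had 41.4, 36.52 and 37.31 CPM after amidosulfuron and 18.97, 24.16 and 20.49 CPM in the controls. Its groups did not overlap, and the log2 fold of 0.86 did not pass (edgeR adjusted p = 0.258). For comp15860 the values were 8.28, 7.238 and 10.8 CPM after amidosulfuron and 7.88, 16.95 and 6.968 CPM in the controls, a log2 fold of −0.27. The groups of comp15860 overlapped, as did those of comp15758 (log2 fold 0.23) and comp12317 (0.17), both under 8 CPM in every library.

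The make-up of Brara.F01523 therefore differed between the groups. The component comp46700 held 49.6% ± 12.4 of the gene's RPKM after amidosulfuron and 4.75% ± 1.15 in the controls, while comp31522 held 34.2% ± 6.93 after amidosulfuron and 51.4% ± 4.77 in the controls (SD, n = 3 each). The test of the difference gave an adjusted p of 3.31e-05 (edgeR). It passed in all 15 alternatives in which it could be run (1.93e-06, with no filter on low counts, to 0.00476). With whole counts only it could not be run, since too few of the gene's components had whole counts, and comp46700 was not among them. The difference rests on comp46700, the component that entered through the treated libraries. Every alternative with a count filter held comp46700 by that route, so those passes are no separate support. Summed over components, the gene had a log2 fold of 1.64 that did not pass with edgeR (adjusted p = 0.0744) and did with DESeq2 (adjusted p = 0.000112, range over 15 alternatives 7.02e-05 to 0.296). The call of comp46700 alone ended without control 2 (edgeR adjusted p = 0.0576) and with limma-voom (0.075), and passed in 12 of 14 alternatives (5.34e-32 to 0.075).

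In Brara.I05370, 1 of 4 components rose from a low level beside another that was abundant in both groups. The component comp55348, 4 transcripts of up to 1105 bp, had 530.5, 163.8 and 325.4 CPM in the amidosulfuron libraries and 15.18, 31.79 and 29.92 CPM in the control libraries. Every treated library was well above every control, and the log2 fold was 3.73 ± 0.478 (SE, n = 3 each; edgeR adjusted p = 0.0191). The component comp16199, 921 bp long, had 437.2, 211.5 and 368.2 CPM after amidosulfuron and 228.5, 206 and 197.6 CPM in the controls. Its groups overlapped, since amidosulfuron 2 lay below control 1, and the log2 fold of 0.69 did not pass (edgeR adjusted p = 0.42).

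The remaining components of Brara.I05370 were scarce. The component comp46919 had 3.864, 2.632 and 6.381 CPM after amidosulfuron and 9.922, 6.781 and 4.508 CPM in the controls, with a log2 fold of −0.77 and overlapping groups. For comp49764 no library exceeded 6 CPM, and the log2 fold was −0.19. In shares of the gene's RPKM, comp55348 held 46.9% ± 5.79 after amidosulfuron and 10.1% ± 3.88 in the controls, and comp16199 held 51.9% ± 5.42 after amidosulfuron and 85.6% ± 2.77 in the controls (SD, n = 3 each). By these shares comp55348 led in amidosulfuron 1 alone.

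The calls of Brara.I05370 were lost in several alternatives while the fold of comp55348 stayed high. The test of a difference between its components gave an adjusted p of 0.00316 (edgeR), and it did not pass without control 1 (0.17), control 2 (0.106) or amidosulfuron 1 (0.0881), nor with the replicate number as a block (0.228) or with the Simes form of the test (0.0737). It passed in 10 of 15 alternatives (0.000155 to 0.228). The call of comp55348 ended without control 1 (edgeR adjusted p = 0.0974), without control 2 (0.0932) and with limma-voom (0.075; range over 14 alternatives 8.87e-28 to 0.0974), where its log2 folds were 3.46, 3.92 and 3.67. Without control 2, edgeR called 0 of all 16999 component sums, and 1649 had an unadjusted p under 0.05. Summed over components the gene had a log2 fold of 1.49 that did not pass with edgeR (adjusted p = 0.18; 5.18e-05 to 0.63 over 15 alternatives). Without control 3 and amidosulfuron 2, the libraries that stood apart, the log2 folds were 5.41 for comp46700 and 4.2 for comp55348, and both passed with edgeR (adjusted p = 0.00227 and 0.00603).

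**Figure D3:**
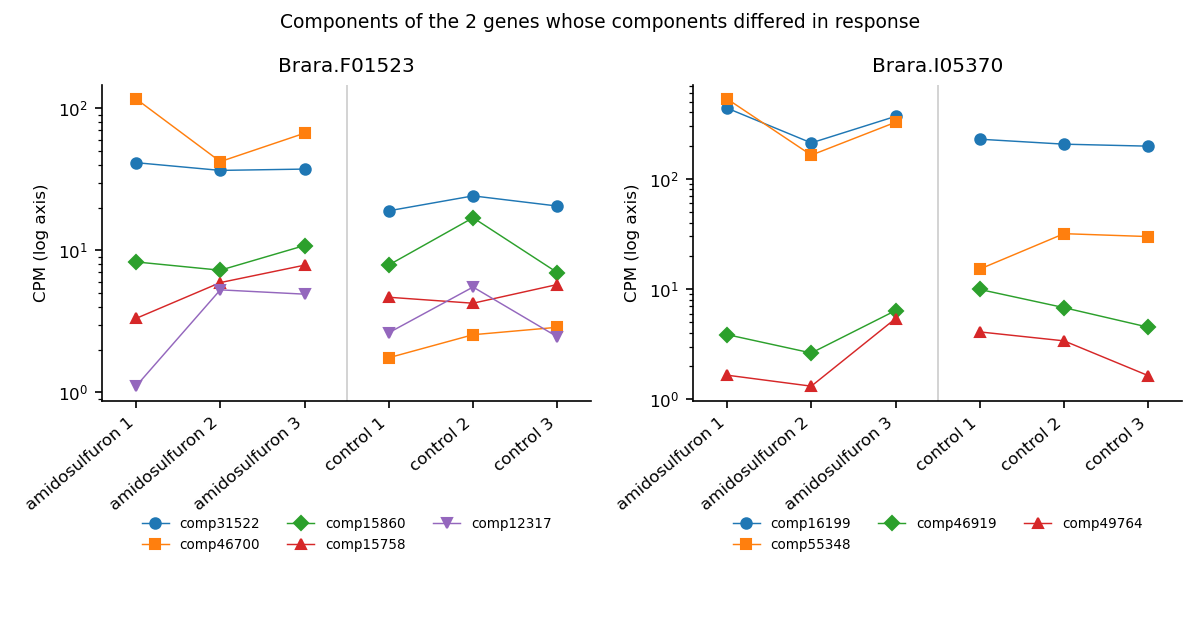
CPM (log axis) of every component of Brara.F01523 (left, 5 components) and Brara.I05370 (right, 4 components) in the 3 amidosulfuron and 3 control libraries; lines only join values of 1 component. The component comp46700 lies at 42.11 CPM or more after amidosulfuron and at 2.869 CPM or less in the controls, and comp55348 at 163.8 CPM or more after amidosulfuron and at 31.79 CPM or less in the controls, while the other components of each gene differ less.

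No component of the 96 genes passed the test downwards. The smallest p among lower components belonged to comp21579 of Brara.E02850, a transcript of 239 bp with whole counts. It had 35.33, 26.65 and 16.69 CPM after amidosulfuron and 111.8, 57.64 and 40.99 CPM in the controls. The groups did not overlap, control 1 stood high, and the log2 fold of −1.43 did not pass (edgeR adjusted p = 0.275). A second component of the gene, comp16223, had 15.46, 16.78 and 20.62 CPM after amidosulfuron and 42.61, 42.38 and 18.44 CPM in the controls, so control 3 lay among the treated values. Its remaining components had log2 folds of −0.21 (comp16702) and 0.30 (comp49221), and the sum of the gene had −1.01 (edgeR adjusted p = 0.33).

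In Brara.B00385 the abundant component was lower and scarce components were higher after amidosulfuron, without passing the tests. The leading component comp58073, 7 transcripts, had 30.91, 45.73 and 59.89 CPM after amidosulfuron and 141.5, 74.59 and 75.82 CPM in the controls, a log2 fold of −1.10 with no overlap (edgeR adjusted p = 0.311). The scarce comp51064 had 11.04, 4.606 and 7.854 CPM after amidosulfuron and 4.669, 2.543 and 1.23 CPM in the controls, a log2 fold of 1.37 (edgeR adjusted p = 0.391). The groups of comp51064 overlapped by a narrow margin. The share of comp58073 was 63.3% ± 13.4 of the gene's RPKM after amidosulfuron and 85.7% ± 2.65 in the controls (SD, n = 3 each). The test of a difference between the 4 components was the third smallest of the 96 genes and gave an adjusted p of 0.127 (edgeR; 0.0686 to 0.999 over 15 alternatives).

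In other genes the components had similar folds, short of the adjusted threshold. Brara.H02895, the gene with most counts, had 5 components with log2 folds between 0.63 and 1.24, each with an unadjusted p under 0.05 (edgeR) and none past the adjusted threshold. Its leading component comp56939 held 64.8% of the gene's RPKM and had 7439, 3668 and 6339 CPM after amidosulfuron and 2499, 2221 and 2660 CPM in the controls. Every treated library was above every control, with amidosulfuron 2 the lowest of the treated, and the log2 fold was 1.24 ± 0.312 (SE, n = 3 each; edgeR adjusted p = 0.208). The sum of the gene was 7551 ± 2459 CPM after amidosulfuron and 3437 ± 430.1 CPM in the controls (SD, n = 3 each), a log2 fold of 1.14 (edgeR adjusted p = 0.264). The edgeR test of a difference in response between its components gave an unadjusted p of 0.503.

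Brara.I00365, singled out after its values were seen, had 5 components, each with all treated values above the controls. The leading component comp52945 had 1415 CPM in amidosulfuron 1, 791.6 in amidosulfuron 2 and 1178 in amidosulfuron 3, against 715.9, 601.4 and 608.6 CPM in the controls. The log2 folds of the 5 components ran from 0.81 to 1.27. The sum was 1982 ± 611 CPM after amidosulfuron and 1045 ± 113.4 CPM in the controls (SD, n = 3 each), a log2 fold of 0.92 (edgeR adjusted p = 0.306). The edgeR test of a difference between its components gave an unadjusted p of 0.687. In both genes amidosulfuron 1 was the highest treated library in every component, as the plot of their values shows. What part shared reads have in this was not tested.

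**Figure D4:**
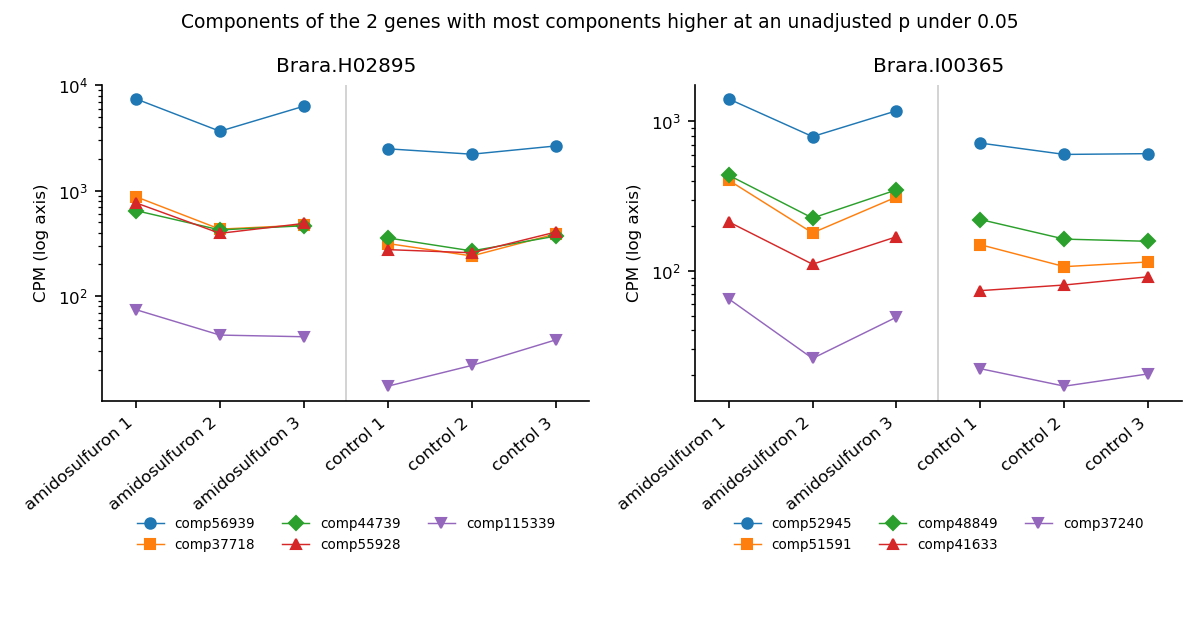
CPM (log axis) of the 5 components of Brara.H02895 (left) and of Brara.I00365 (right) in the 3 amidosulfuron and 3 control libraries; lines only join values of 1 component. Amidosulfuron 1 is the highest treated library in every component, and 1 component of Brara.H02895 (comp55928, 394.5 CPM in amidosulfuron 2 and 405.8 in control 3) overlaps between the groups.

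Brara.H01228, the gene with the next highest count, differed less. Its 4 components had log2 folds of 0.08 to 0.62, and the sum was 4453 ± 203.4 CPM after amidosulfuron and 3915 ± 638.1 CPM in the controls (SD, n = 3 each), a log2 fold of 0.19 (edgeR adjusted p = 0.82). The fold of 0.62 belonged to comp58136, with 1076, 615.6 and 924.8 CPM after amidosulfuron and 605, 529.8 and 571.3 CPM in the controls. Its groups did not overlap.

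The genes with most components showed folds of both signs and sums close to 0. Brara.I04878 had 13 components, of which 8 had log2 folds above 0 (range −1.34 to 0.56). The component comp20242 had 6.624, 6.58 and 7.363 CPM after amidosulfuron and 15.76, 8.476 and 17.21 CPM in the controls, so it was lower without overlap, as was comp57842 (log2 folds −1.01 and −0.71). The component comp55962 was higher without overlap (0.33). The sum had a log2 fold of 0.10, and the test of a difference gave an unadjusted p of 0.00439 and an adjusted p of 0.472 (edgeR). None of its 13 components passed the adjusted threshold.

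Brara.B00246 had 12 components with log2 folds of −0.54 to 1.46. Its leading component comp52720 held 41.0% of the RPKM and had 259.4, 210.2 and 266.5 CPM after amidosulfuron and 259.7, 266.1 and 230.3 CPM in the controls. The groups overlapped fully, with a log2 fold of −0.04. The highest fold of the gene belonged to comp12719, which stayed under 10 CPM in every library and whose groups overlapped. Brara.K01679 had 11 components with log2 folds of −0.35 to 0.50 and a sum with a log2 fold of 0.11. Its edgeR test of a difference gave an unadjusted p of 0.84. The component comp52362 matched both Brara.I04878 and Brara.K01679 and had 4.416, 3.29 and 3.436 CPM after amidosulfuron under either gene.

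Among the 56 genes with a summed mean count of at least 200, the leading share was highest in Brara.I03906 and Brara.E03659. In Brara.I03906 comp57979 held 86.2% of the RPKM and stood 12.7-fold above the runner-up. It had 658, 813.9 and 634.7 CPM after amidosulfuron and 830.8, 697.6 and 885.3 CPM in the controls, which overlapped. All 5 components of Brara.I03906 had log2 folds below 0 (−0.87 to −0.05). The lowest belonged to comp22063, with 33.12, 29.61 and 39.27 CPM after amidosulfuron and 83.46, 52.55 and 49.59 CPM in the controls (edgeR adjusted p = 0.322). In Brara.E03659 comp57148 held 76.6%, and its 4 log2 folds lay between −0.19 and 0.29.

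The leading share was lowest in Brara.I04878 (comp36772, 21.7%) and Brara.D01507 (comp24106, 27.0%). The 4 components of Brara.D01507 were nearly level, with shares of 21.0% to 27.0%. Of these, comp54738 had 16.56, 23.03 and 15.71 CPM after amidosulfuron and 67.12, 23.73 and 27.46 CPM in the controls, a log2 fold of −1.10. Its groups did not overlap, with control 1 far above the others and control 2 close to amidosulfuron 2. The other components of Brara.D01507 had log2 folds of 0.51 to 0.58, and the test of a difference gave an unadjusted p of 0.00388 and an adjusted p of 0.438 (edgeR).

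Genes matched by fewer components gave the frame for these values. Of the genes past the filter, 9780 had 1 component, 1878 had 2 and 285 had 3. The pooled SD of log2 folds within a gene was 0.39 for genes with 2 components, 0.437 with 3 and 0.507 with 4 or more, and the last was 0.422 without Brara.F01523 and Brara.I05370. All components had one sign in 73.9% of genes with 2 components, in 53.3% with 3 and in 32.3% with 4 or more. A single sign becomes rarer with more components even for unrelated folds, so these shares do not rank the classes. The 855 components of genes with 3 held 18 called higher and 0 called lower (edgeR, adjusted p under 0.05), against 2 and 0 of the 466. The difference between these numbers was not tested.

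In every treated library the 96 genes together took a larger part of the counts than in any control. They held 3.53%, 2.78% and 3.26% of the tabulated counts in the amidosulfuron libraries and 2.24%, 2.40% and 2.51% in the control libraries. The difference of 0.808 percentage points gave p = 0.1 in a two-sided exact permutation test, the smallest that 3 against 3 libraries allow. The counts compared are those that chose the genes. Brara.H02895 alone took 0.915%, 0.526% and 0.772% after amidosulfuron and 0.33%, 0.32% and 0.391% in the controls. Without it the genes held 2.45% ± 0.181 after amidosulfuron and 2.03% ± 0.112 in the controls (SD, n = 3 each), a difference of 0.418 percentage points (exact permutation p = 0.1). Other abundant genes weighed in it. Brara.D01533 had a mean of 4334 CPM after amidosulfuron and 2549 in the controls, Brara.I00365 1982 and 1045, and Brara.I03565 1884 and 1173. Not all abundant genes were higher: Brara.D01826 had a mean of 881.2 CPM after amidosulfuron and 982.5 in the controls, and Brara.I03906 777.3 and 918.8. None of these sums passed the adjusted threshold (edgeR). Over the 96 genes the median log2 fold of the sums was 0.07, with 59 above 0. The share is weighted to abundant genes and does not show that the set as a whole rose.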

How the data were processed

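The authors aligned clean reads of 36 nt with Bowtie2 2.1.0, 1 mismatch allowed, to transcripts of an earlier Trinity assembly and matched these to Brassica rapa FPsc v1.3, per the series' design text. The labels also mention normalized cDNA without saying how it was made. The deposited tables hold an estimated count per transcript, not normalized by the authors, and an RPKM value that the authors scaled to transcript length and mapped reads. Each table ends at 65535 transcripts, and transcripts beyond the last were not analysed here, so numbers of components cover the tabulated part. Treated tables are rounded to 1 decimal, so RPKM shares of scarce components are coarse there.

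Transcripts with an upper quartile of at least 10 counts were kept (24958 of 65535, 22115 of them matched). Counts were summed per gene and component, or per gene, and rounded. The test was that of edgeR 4.0.16, run in R 4.3.3 (trimmed-mean factors, glmQLFit, glmQLFTest, group as the only term, all 6 libraries), with Benjamini-Hochberg adjustment over all 16999 component sums or 14181 gene sums, unmatched components included. Differences in response within a gene used diffSpliceDGE over 2259 genes. The biological coefficient of variation was 31.8%. DESeq2 1.42.0 and limma-voom (limma 3.58.1) were alternatives, and shares used two-sided exact permutation tests (scipy 1.17.1). Figures were drawn with matplotlib 3.10.9.

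On simulated counts, the test of 16999 component sums recovered 92.3% of 52 sums raised and 70.9% of 55 lowered by a log2 fold of 2. It recovered 100% of 49 raised by 4. Of 180 simulated calls of component sums 1.11% were false, and of 50 simulated calls of a difference between components 6% were. These shares hold for the simulated counts only. Recovery in the real libraries, where calls moved with single libraries left out, was not tested and may be lower. Reads carry no molecular identifiers. Depth limits precision: 63 of the 466 pairs had a group mean under 10 counts.

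Genes were named by rule: the 3 with most components; the 2 with the highest summed CPM; the 2 components with the smallest p in each direction (those not past the threshold are said not to have passed); the 3 with the smallest p for a difference between components; and the 2 with the highest and the 2 with the lowest leading share among genes with a summed mean count of at least 200. Brara.I00365, Brara.D01533, Brara.I03565 and Brara.D01826 were named outside these rules, after their values were seen. The genes, rules and tests were chosen with earlier results of these data known.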

Additional observations from a re-analysis of the deposited data

How the results depend on the processing

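The number of components called higher (2 of 466, and 52 of all 16999) became 6 with DESeq2 (160 of all 16975) and 0 with limma-voom (1 of all). With no filter on low counts 20 were higher and 6 lower, among more pairs than 466, where 415 and 709 of all 45944 were. For single transcripts it was 5 of 697 (40 of all 24958). It was 0 of the 46 components with whole counts (which leave out both called components), where 11 of all 2734 were higher. Without control 3 and amidosulfuron 2 it was 7 (166 of all 16999). By the p and fold limits of the design text 26 were higher and 6 lower (466 and 543 of all). With 1 library left out the number called higher ran from 0 (without control 2) to 10 (without amidosulfuron 2). There edgeR called 0 and 203 of all 16999 component sums higher. Genes with a difference between components (2) became 1 with the Simes form, 1 with the replicate block, 0 with whole counts only (9 genes left with at least 2 components) and 1 to 3 with 1 library left out. Genes called higher as sums (0) became 4 with DESeq2, 6 with no filter, 4 without control 3 and amidosulfuron 2, 5 by those limits (1 lower) and 0 to 5 with 1 library left out. The cause of these changes was not tested; a fit with fewer libraries also has less power. Equal replicate numbers did not pair the libraries, whose deviations from their group's mean correlated at 0.12 (number 1), −0.12 (number 2) and −0.41 (number 3). The difference in the median of the highest share within a library (−1.09) ran from −2.05 to 0.0603 with 1 library left out. That in the share of counts (0.808) ran from 0.638 to 1.01. The sum of Brara.I05370 had a log2 fold of −0.69 with whole counts only, where comp46919 alone is left. The number of genes with a constant leader (54) was 58 with counts in place of RPKM. It was 44 with the RPKM of the longest transcript of each component. With libraries left out it cannot fall, and it was 55 to 62. With other limits the rule gave 381 genes (3 or more components), 39 (5 or more) or 46 (an upper quartile of at least 20). The choices for the shares were added after the data were seen.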
